A study of Mus musculus with 12 samples.

Results

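The genes described here lie beside Isl1 on mouse chromosome 13, the gene that was made removable by Cre in this study. They are the 8 genes Mier3, Map3k1, Gpx8, Snx18, 4933413L06Rik, Nnt, 4833420G17Rik and Tmem267, of 25674 genes in the deposited table. They were selected on their distance of at most 5 Mb from Isl1 and on their measured expression difference between the 2 genotypes (adjusted p under 0.05). These conditions were met by 10 genes, and 2 of them, one being Fgf10, are not among the 8. Since the 8 genes were selected on this difference, its direction and size are descriptions, with no test. Embryos labelled Isl1CKO carried Neurod1-Cre, Isl1 alleles flanked by loxP sites on both chromosomes, and the tdTomato reporter at the Rosa26 locus. Control embryos carried Neurod1-Cre and the same reporter, without a floxed Isl1 allele. Cre came from a bacterial artificial chromosome carrying Neurod1 sequence, placed by pronuclear injection, and the lines had a mixed C57BL/6/sv129 background, per the labels' protocols. By the labels, each of the 12 libraries, 6 per genotype, held 100 sorted tdTomato-positive cells from the spiral ganglia of 1 embryo (both inner ears) at E14.5, a day in mid gestation. The transcripts of 3 Isl1CKO-labelled libraries go against 1 embryo per library, since they came from each sex.

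Spiral ganglion neurons link the hair cells of the ear with the hindbrain, and Isl1 encodes a LIM homeodomain transcription factor made in them. A targeted allele is passed on together with the chromosome segment around it. Where the strain that gave the segment differs from the strain of the control chromosome, neighbouring genes can be expressed differently whether or not the targeted gene controls them. The gene Nnt is known for such a strain difference, since C57BL/6J mice carry a deletion within it that many other strains lack. The labels name neither the C57BL/6 substrain nor the strain of the segment around the floxed allele. All 6 Isl1CKO-labelled libraries carry the floxed alleles with the segment around them, so loss of ISL1 and linkage to the floxed allele cannot be told apart for any of the 8 genes.

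Total counts ran from 11895603 to 13857480 per library, and 3 counts, taken as the floor of detection, were worth 0.219 to 0.250 CPM. Floors cover counting error only. CPM are counts scaled to a common library size, here with TMM, which corrects for differences in library composition. Neuron markers (Tubb3, Elavl3, Elavl4, Snap25, Prph, Gata3 and Neurod1) summed to 8242 to 10130 CPM in controls and 7847 to 10870 CPM in Isl1CKO-labelled libraries. The gene-level counts of Isl1 did not separate the groups, at 1171 to 1777 CPM in controls and 1050 to 1588 CPM in the other libraries. They sum the whole gene and so do not show whether the floxed part was removed. In 3 libraries, Isl1CKO 2, 3 and 5, Xist and the mean of the Y-linked genes were both above 20 CPM, so these libraries held transcripts of each sex, which goes against the single embryo the labels give. Why they did was not tested. Without these 3 libraries the 8 members kept their direction, and 3 of them (Snx18, Map3k1 and 4833420G17Rik) had an adjusted p under 0.05. In that fit, 367 genes were called higher and 400 lower, of 16222 tested. It reuses libraries on which the members were chosen, so nothing is read from their direction or calls.

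The sequences upstream of the members were read first, because a homeodomain protein recognises a short core of letters. RefSeq's table for GRCm38.p6 gave an upstream sequence for 7 of the 8 members. The 250 bases before the start of transcription were searched on both strands for TAAT, the core bound by many homeodomains, and for TAATTG, which contains it. Shown are the members with the largest difference in each direction among those with a mean above 10 CPM in both groups, Snx18 (lower) and Map3k1 (higher), and the 2 other lower members that hold a match. Capitals mark TAAT, or ATTA where the match is on the opposite strand.
Snx18, chr13:113618565-113618814, minus strand: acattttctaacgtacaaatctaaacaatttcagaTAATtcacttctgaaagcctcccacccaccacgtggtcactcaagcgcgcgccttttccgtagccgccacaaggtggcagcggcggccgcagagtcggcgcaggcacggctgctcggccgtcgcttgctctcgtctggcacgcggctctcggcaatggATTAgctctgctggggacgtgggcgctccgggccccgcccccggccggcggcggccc
4933413L06Rik, chr13:117720012-117720261, minus strand: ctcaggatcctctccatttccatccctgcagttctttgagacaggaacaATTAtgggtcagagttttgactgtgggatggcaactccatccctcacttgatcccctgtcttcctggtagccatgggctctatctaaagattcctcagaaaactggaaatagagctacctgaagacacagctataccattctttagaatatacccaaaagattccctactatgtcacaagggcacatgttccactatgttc
4833420G17Rik, chr13:119462509-119462758, plus strand: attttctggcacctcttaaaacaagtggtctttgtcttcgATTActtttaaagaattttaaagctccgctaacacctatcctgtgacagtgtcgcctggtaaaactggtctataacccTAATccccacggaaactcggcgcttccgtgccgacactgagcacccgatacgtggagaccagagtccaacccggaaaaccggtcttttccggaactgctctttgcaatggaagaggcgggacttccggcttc
Map3k1, chr13:111808994-111809243, minus strand: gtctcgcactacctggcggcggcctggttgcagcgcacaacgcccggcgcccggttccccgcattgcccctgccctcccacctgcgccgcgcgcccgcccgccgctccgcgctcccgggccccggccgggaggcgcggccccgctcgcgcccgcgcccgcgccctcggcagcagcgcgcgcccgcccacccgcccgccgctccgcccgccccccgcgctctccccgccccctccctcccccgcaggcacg

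Snx18 and 4833420G17Rik each held 2 matches to TAAT, and 4933413L06Rik held 1, which was also a match to TAATTG. The upstream sequences of Mier3, Map3k1 and Gpx8, which were higher in Isl1CKO-labelled libraries, and both of Tmem267, which was lower, held 0 matches to TAAT. The starts of transcription used differ from the gene spans given below. For Mier3 the sequence searched (111685928 to 111686177) lies inside the span, and those of Gpx8 and Tmem267 overlap theirs. Of all 32851 upstream sequences of the same length in the table, 54.9% held TAAT and 7.2% held TAATTG. The letters are GC-rich to different degrees, with 85.2% G and C upstream of Map3k1, 64.4% upstream of Snx18 and 44.8% upstream of 4933413L06Rik, against a median of 52.4% over the table. A match is a description of the letters and does not show that a factor binds there. The sequences of 4933413L06Rik and 4833420G17Rik were printed because they hold a match, so those printed do not compare higher with lower members.

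Among the members on the lower-coordinate side of Isl1, Mier3 and Map3k1 are neighbours 27.8 kb apart, and both were higher in Isl1CKO-labelled libraries. Map3k1 encodes a kinase at the top of the MAP kinase cascades that lead to JNK and ERK. It lies on the minus strand at chromosome 13, 111746428 to 111808993 (GRCm38), 4.49 Mb from Isl1. Its level in controls ran from 13.8 to 39.1 CPM with a median of 29.0 CPM. In Isl1CKO-labelled libraries it ran from 50.9 to 79.9 CPM with a median of 70.6 CPM. The lowest Isl1CKO-labelled library thus lay above the highest control, and the lowest control was replicate 6. Mean levels of 68.5 ± 12.2 CPM with the Isl1CKO label against 28.0 ± 9.20 CPM in controls (SD, n = 6) gave a log2 fold change of 1.29 (SE, its standard error, 0.22).

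Mier3, which encodes a relative of the MIER1 chromatin co-repressor, lies at 111680979 to 111718596 on the plus strand. Its levels ran from 59.0 to 80.6 CPM in controls (median 71.9 CPM) and from 79.1 to 108 CPM in Isl1CKO-labelled libraries (median 90.2 CPM). The groups overlapped because control 2, the highest control, exceeded Isl1CKO 5, the lowest library of the other group. The log2 fold change of 0.36 (SE 0.10) was the smallest of the 8 members. Gpbp1, the tested neighbour on the outer side of Mier3 and 191 kb from it, had a log2 fold change of 0.23 (SE 0.10). On the other side of Map3k1, 655 kb away, Il6st had one of -0.20 (SE 0.22). Mier3 and Map3k1 thus shared a direction but not a size. Gpbp1 had the same direction as Mier3, and the standard errors of these 2 genes overlapped. Members were chosen for passing the threshold, so nothing is read from neighbours that lay nearer to 0.

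Gpx8 encodes a peroxidase of the endoplasmic reticulum that belongs to the glutathione peroxidase family. It lies at 113042753 to 113046410 on the minus strand, 3.25 Mb from Isl1. Its levels ran from 23.3 to 44.7 CPM in controls (median 29.2 CPM) and from 35.5 to 66.2 CPM in Isl1CKO-labelled libraries (median 50.7 CPM). Control 2 overlapped the lower Isl1CKO-labelled libraries, while the other 5 controls lay at or under 32.9 CPM. Mean levels of 50.0 ± 12.1 CPM with the Isl1CKO label against 30.8 ± 7.77 CPM in controls (SD, n = 6) gave a log2 fold change of 0.70 (SE 0.19). Its tested neighbour Dhx29, 73.3 kb away, had a log2 fold change of 0.16 (SE 0.12).

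Snx18, 546 kb further towards Isl1, had the largest difference of the 8 members and was lower. It encodes a sorting nexin of the SNX9 family, which bends membranes in endocytosis. It lies at 113592179 to 113618564 on the minus strand, 2.68 Mb from Isl1. Its levels ran from 67.1 to 94.8 CPM in controls (median 79.0 CPM) and from 14.8 to 28.2 CPM in Isl1CKO-labelled libraries (median 23.5 CPM). The groups were far apart, with the lowest control above every Isl1CKO-labelled library. Mean levels were 22.7 ± 4.49 CPM with the Isl1CKO label against 80.5 ± 12.6 CPM in controls (SD, n = 6), so the control mean was 3.54 times the other. The log2 fold change was -1.82 (SE 0.16). Arl15, the next tested gene towards Isl1, 176 kb away, had a log2 fold change of -0.36 (SE 0.32).

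**Figure D1:**
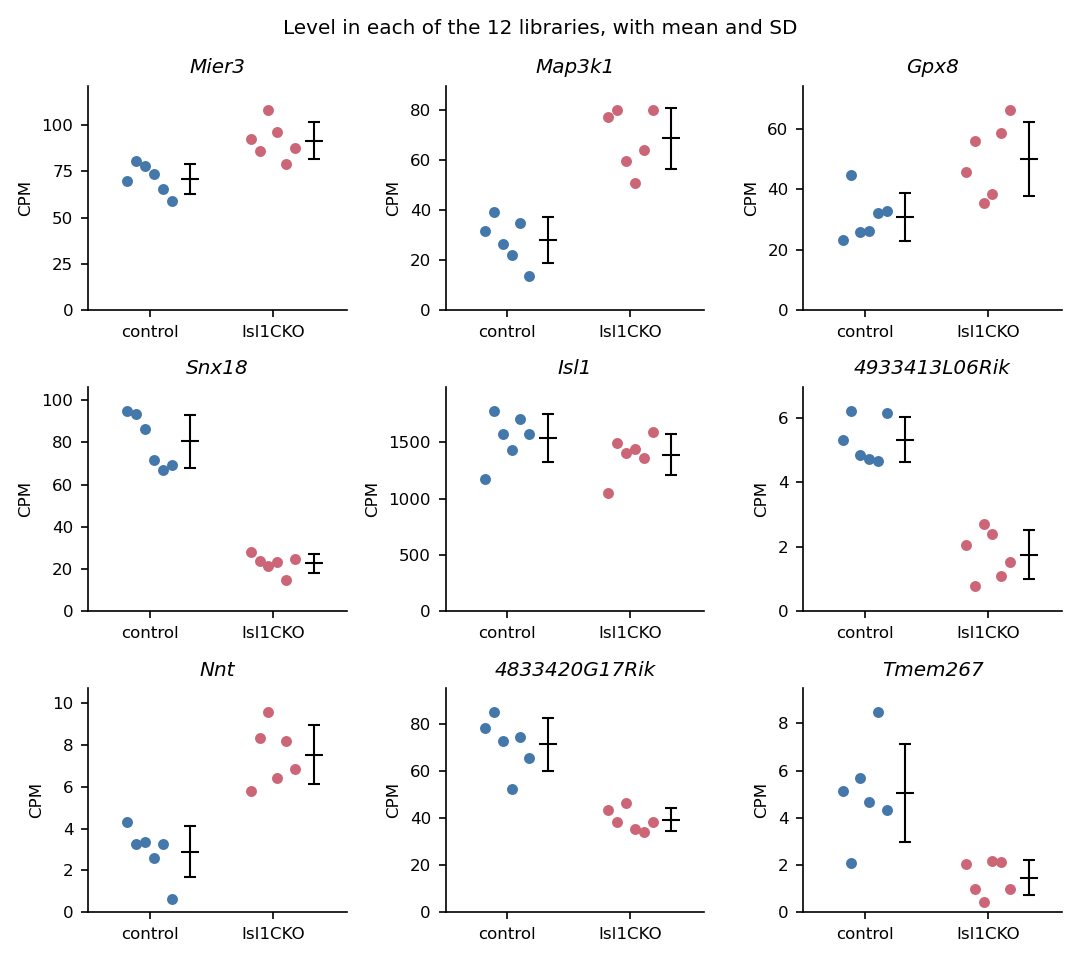
Levels of the 8 members and of Isl1 in CPM (vertical axes, starting at 0) in each of the 6 control libraries (blue) and 6 Isl1CKO-labelled libraries (red), in chromosome order, with the mean and SD in black. Map3k1, Snx18, 4933413L06Rik, Nnt and 4833420G17Rik separate the groups without overlap, while the groups overlap for Isl1, with 1171 CPM in the lowest control and 1588 CPM in the highest library of the other group.

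On the higher-coordinate side of Isl1, the member nearest to it is 4933413L06Rik, annotated as an antisense RNA. It lies on the minus strand at 117706764 to 117720011, 1.40 Mb from Isl1. Its levels ran from 4.68 to 6.21 CPM in controls (median 5.08 CPM) and from 0.776 to 2.71 CPM in Isl1CKO-labelled libraries (median 1.79 CPM). All controls lay above all Isl1CKO-labelled libraries, which held 10 to 36 counts each. The log2 fold change was -1.59 (SE 0.36). The RNA shares 0 exonic bases with other genes. The use of strand in counting is not given in the sources used here, so its reads and any unspliced reads from the opposite strand cannot be told apart.

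Nnt encodes the mitochondrial transhydrogenase that makes NADPH, the cofactor used against peroxides. The row counted lies on the minus strand at 119335448 to 119408997, 3.03 Mb from Isl1. Its levels ran from 0.659 to 4.32 CPM in controls (median 3.25 CPM) and from 5.78 to 9.56 CPM in Isl1CKO-labelled libraries (median 7.51 CPM). Every Isl1CKO-labelled library lay above every control, and control 6, with 9 counts, was the lowest. Mean levels of 7.52 ± 1.40 CPM with the Isl1CKO label against 2.90 ± 1.23 CPM in controls (SD, n = 6) gave a log2 fold change of 1.37 (SE 0.38). Per kilobase of exon these levels were low, at 1.07 CPM per kb in Isl1CKO-labelled libraries and 0.412 in controls.

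What the Nnt row counts is uncertain. GENCODE release M21 holds a second gene model also named Nnt on the same strand, whose 17 exons and 3339 bases all lie inside exons of the first model. The second model has 0 rows in the deposited table. The first model has 3698 exonic bases of its own, or 52.6%, of which 2645 lie in 2 stretches. Where both models are used, a read in a shared exon belongs to both, and the annotation and the treatment of such reads are not given in the sources used here. The difference may thus refer to the shared exons or to the stretches of the first model alone. Its nearest tested neighbours were Paip1, 19.6 kb away, with a log2 fold change of 0.015 (SE 0.12), and Fgf10, 543 kb away, with one of -2.61 (SE 0.13).

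4833420G17Rik and Tmem267 lie 1.92 kb apart on the plus strand, and both were lower in Isl1CKO-labelled libraries. 4833420G17Rik, a protein-coding gene at 119462768 to 119486120, ran from 52.4 to 84.9 CPM in controls (median 73.4 CPM) and from 34.0 to 46.4 CPM in Isl1CKO-labelled libraries (median 38.3 CPM). The groups did not overlap. Mean levels of 39.3 ± 4.78 CPM with the Isl1CKO label against 71.3 ± 11.2 CPM in controls (SD, n = 6) gave a log2 fold change of -0.86 (SE 0.13). Paip1, only 4.55 kb away on the other side, averaged 197 ± 29.4 CPM with the Isl1CKO label against 195 ± 27.9 CPM in controls (SD, n = 6). The 2 adjacent genes thus had unlike differences, though 4833420G17Rik was chosen for its difference and Paip1 was not.

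Tmem267, which encodes a predicted transmembrane protein, lies at 119488039 to 119611059. Its levels ran from 2.07 to 8.48 CPM in controls (median 4.91 CPM) and from 0.452 to 2.17 CPM in Isl1CKO-labelled libraries (median 1.53 CPM). Control 2 was as low as the highest Isl1CKO-labelled libraries, so the groups overlapped. The log2 fold change was -1.78 (SE 0.46), on 6 to 107 counts per library. Of the distinct 50-base stretches in its transcripts, 15.1% occur at more than 1 place within the gene itself and 4.4% in transcripts of other genes, so reads from these stretches can be assigned more than 1 way. The corresponding share within the gene was at most 0.1% for each of the other 7 members. The share in transcripts of other genes was 47.0% for Nnt, 8.8% for 4833420G17Rik and at most 0.7% for the rest. Genes on the opposite strand shared 10.7% of the exonic bases of 4833420G17Rik and 6.3% of those of Tmem267. Gm9752 and 3110070M22Rik, which overlap 4833420G17Rik and Tmem267 on the opposite strand, had log2 fold changes of -1.15 and -0.88 with standard errors of 0.54 and 0.49, at means of at most 2.29 CPM.

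Within 5 Mb of Isl1 the table held 76 genes, of which 36, Isl1 among them, had enough counts to be tested. All 8 members had. With the threshold of 0.05 on the Benjamini-Hochberg adjusted p of edgeR's quasi-likelihood F-test, 10 of the 36 differed, the 8 members and Fgf10 among them. Over all 14813 tested genes the share called was 10.2%, with 5.01% higher and 5.19% lower. The rule used this contrast, so nothing is read from the 27.8% in the window. Of the members, 4 were higher and 4 lower, and on each side of Isl1 both directions occurred, with 3 higher and 1 lower on the lower-coordinate side and 1 higher and 3 lower on the other. Of all 10 called genes in the window, 4 were higher and 6 lower, with 1 higher and 5 lower on the higher-coordinate side. The groups did not overlap for 5 of the 8. The share over all tested genes was 6.78%, but the members were chosen on this contrast, so nothing is read from the comparison. Without control 2 the groups did not overlap for any of the 8. The share of all tested genes was not computed without that library, so nothing is read from this. Just inside the threshold lay Mier3 (adjusted p = 0.0363) and just outside it Zfp131 (edgeR adjusted p = 0.0897, log2 fold change -0.36). The farthest tested gene within the distance was Gpbp1 at 4.81 Mb, and the nearest beyond it was Plk2 at 5.90 Mb.

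**Figure D2:**
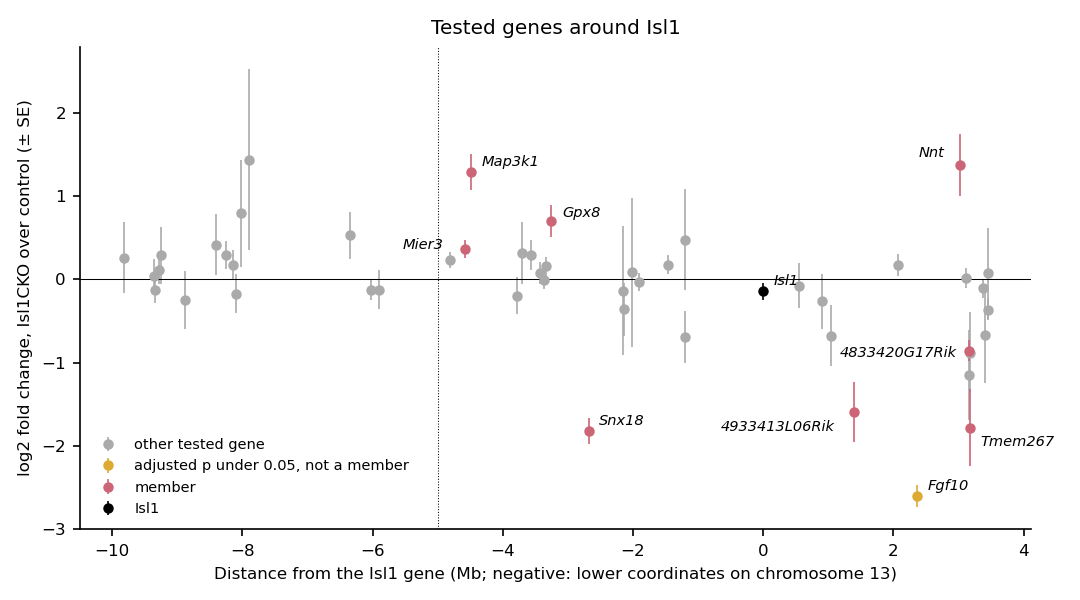
Log2 fold change with its standard error (vertical axis) against distance from Isl1 in Mb (horizontal axis) for tested genes within 5 Mb and the 15 from 5 to 10 Mb; the dotted line marks 5 Mb. Members (red), chosen by this difference, stand among other tested genes, of which some lie near 0 and some do not, such as Gm9752 at -1.15. The largest fall is that of Fgf10 at -2.61. Within 5 Mb, members included, the median was 0.12 over 18 tested genes at lower coordinates and -0.66 over 17 at higher coordinates.

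The regions that the choice of members did not use were tested in the same fit. From 5 to 10 Mb from Isl1, all on its lower-coordinate side, 0 of 15 tested genes were called by edgeR, and 0 had an unadjusted p under 0.05. DESeq2's Wald test and limma-voom also called 0. The median log2 fold change of these genes was 0.17, and the largest, 1.44 for Depdc1b, had a standard error of 1.09. Chromosome 13 beyond 5 Mb had 55 of 548 tested genes called, or 10.0%, and single chromosomes ran from 6.85% to 13.9%.

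Near the reporter locus Gt(ROSA)26Sor on chromosome 6, which both genotypes carry in targeted form, 5 of 67 tested genes within 5 Mb were called, or 7.46%. Edem1, a gene of protein quality control in the endoplasmic reticulum, rose with a log2 fold change of 1.51 (SE 0.19, edgeR adjusted p = 1.10e-04). Rassf4, which encodes a RAS-association domain protein, fell, with a log2 difference of -1.53 (edgeR adjusted p = 4.19e-05). Zfand4 rose from 7.96 ± 2.90 to 18.2 ± 5.96 CPM (SD, n = 6; edgeR adjusted p = 0.0143). Zfand4 missed the threshold with macrophage and Schwann cell levels as covariates (edgeR adjusted p = 0.0526).

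Near the endogenous Neurod1 gene on chromosome 2, whose sequence drives Cre in both genotypes, 9 of 46 tested genes were called, or 19.6%. Ube2e3, a ubiquitin-conjugating enzyme gene, rose from 755 ± 92.6 to 1391 ± 124 CPM (SD, n = 6; log2 fold change 0.88, edgeR adjusted p = 1.06e-05). The integrin gene Itga4 rose, with a log2 difference of 1.56 (edgeR adjusted p = 1.95e-04), and Zfp804a fell with one of -1.21 (edgeR adjusted p = 0.00351). Neurod1 itself rose, with a log2 fold change of 0.88 (SE 0.18, edgeR adjusted p = 0.00435). Counts of Neurod1 can include any Neurod1 sequence transcribed from the Cre transgene. The differences in share between the regions were not tested.

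**Figure D3:**
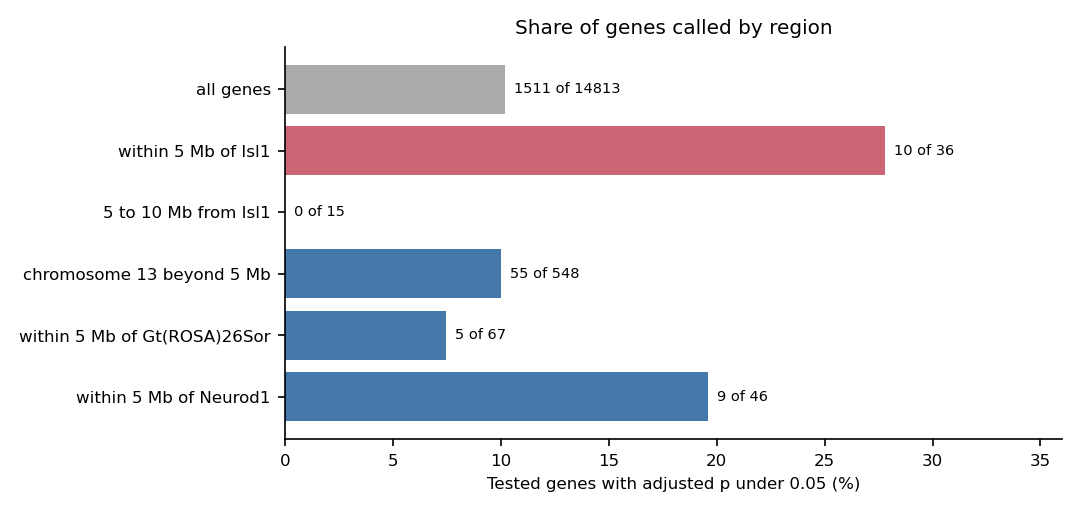
Share of tested genes with an adjusted p under 0.05 (horizontal axis, percent, starting at 0) by region, with the counts written beside each bar. The share was 0 of 15 at 5 to 10 Mb from Isl1 and 9 of 46 around Neurod1, against 10.2% of all genes; the bar within 5 Mb of Isl1 contains the members and was fixed by their choice.

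The families and pathways of 5 members were examined through 5 lists with 69 genes, of which 66 were tested. Across them 8 genes were called, 7 lower and 1 higher, or 12.1%, near the 10.2% of all tested genes. The median log2 fold change was -0.072 over the 66 genes and 0.0045 over all tested genes. With the level of mesenchyme markers as a covariate 0 of these calls remained, and without the 3 libraries that held transcripts of each sex 4 genes of the lists were called.

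For Nnt, the list held genes of NADPH supply and of mitochondrial peroxide defence, along with glutaredoxins, and not all of them use NADPH. Of its 14 tested genes 3 were called lower and 0 higher, while 5.19% of all tested genes were called lower. The list was not tested as a set. Gsr, the glutathione reductase that consumes NADPH, went from 43.3 ± 5.94 to 24.3 ± 4.44 CPM (SD, n = 6; log2 fold change -0.84, edgeR adjusted p = 0.00190). Prdx5, a peroxiredoxin, fell, with a log2 difference of -0.36 (edgeR adjusted p = 0.00719), and Glrx5, a mitochondrial glutaredoxin, with one of -0.68 (edgeR adjusted p = 0.0235). The groups did not overlap for any of the 3. The row of Nnt itself was higher. The calls of Prdx5 and Glrx5 were lost with macrophage and Schwann cell levels as covariates and without the 3 libraries that held transcripts of each sex, and that of Glrx5 also without Isl1CKO 5.

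For Gpx8, the list held its relatives and enzymes of oxidative folding in the endoplasmic reticulum, and edgeR called 0 of 11 tested genes, with 0 at an unadjusted p under 0.05. DESeq2 and limma-voom also called 0. The smallest p was that of Gpx7, the closest relative, with 12.7 ± 3.01 CPM in controls and 16.8 ± 3.55 CPM in Isl1CKO-labelled libraries (SD, n = 6; edgeR adjusted p = 0.271).

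For Map3k1, 2 of 19 tested genes of its family and cascade fell and 0 rose. The share called was 10.5%, near the 10.2% of all tested genes. Mapk3, which encodes ERK1, went from 194 ± 7.46 to 108 ± 20.9 CPM (SD, n = 6; log2 fold change -0.84, edgeR adjusted p = 1.90e-04). Map3k13, another kinase of the MAP3K level, fell, with a log2 difference of -0.73 (edgeR adjusted p = 0.00239). Map3k1, chosen for its difference, differed in the other direction from both, and nothing is read from this.

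For Snx18, 2 of 10 tested genes of endocytosis fell and 0 rose, while 5.19% of all tested genes were called lower. This list was not tested as a set. Dnm3, a dynamin gene, went from 327 ± 51.4 to 152 ± 30.2 CPM (SD, n = 6; log2 fold change -1.11, edgeR adjusted p = 8.24e-05). Wipf1, a partner of the actin regulator N-WASP, fell, with a log2 difference of -1.67 (edgeR adjusted p = 0.0145). For Mier3, 1 of 12 tested chromatin genes was called, or 8.33%, near the 10.2% of all tested genes. It was Mta2, a subunit of a histone deacetylase complex, which rose with a log2 difference of 0.34 (edgeR adjusted p = 0.0141). The call of Wipf1 was lost with macrophage and Schwann cell levels as covariates, and the calls of Wipf1 and Mta2 were lost without the 3 libraries that held transcripts of each sex.

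**Figure D4:**
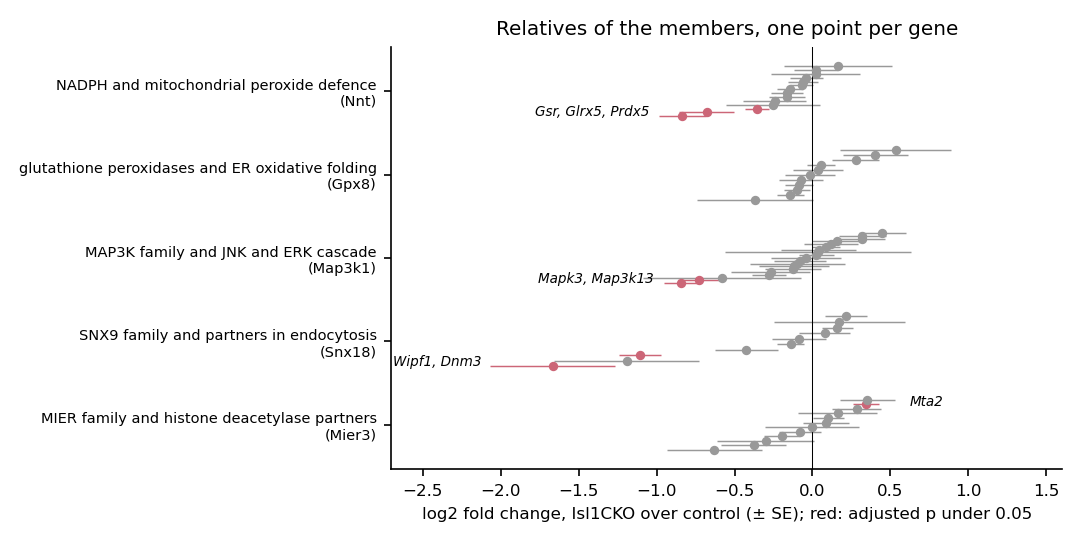
Log2 fold change with its standard error (horizontal axis) of each tested gene in the 5 lists of relatives, with 1 point per gene and the 8 called genes in red, named from the most negative. Of the called genes only Mta2 is higher in Isl1CKO-labelled libraries.

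Gabra2, a GABA-A receptor subunit gene on another chromosome that is also known for a variant private to C57BL/6J, was at 10.2 ± 6.33 CPM in controls and 3.68 ± 3.13 CPM in Isl1CKO-labelled libraries (SD, n = 6). Its log2 fold change of -1.46 (SE 0.53) did not pass the threshold (edgeR adjusted p = 0.102), though it did in DESeq2's Wald test and in edgeR without Isl1CKO 1.

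Neuron markers were called for Neurod1 (higher) and for Elavl4 and Gata3 (lower). Among markers of other cells, genes were called in 1 list, that of mesenchyme, whose members moved apart. Of its 7 markers 4 were tested, and Tbx18 and Col3a1 were called, both higher. Tbx18 had means of 1.09 CPM in controls and 39.5 CPM with the Isl1CKO label, and Col3a1 of 2.66 and 14.1 CPM. Pou3f4, the most abundant of the list in controls, was at 52.9 and 27.4 CPM in the same order (edgeR adjusted p = 0.143), and Col1a2 at 1.30 and 4.67 CPM (edgeR adjusted p = 0.0602). Of the 3 markers not tested, Twist1 was at 1.13 and 0.0129 CPM, Prrx1 at 0.337 and 4.72 CPM and Col1a1 at 0.234 and 0.564 CPM. The sum of all 7 ran from 38.1 to 84.2 CPM in controls and from 69.9 to 120 CPM in Isl1CKO-labelled libraries, and Tbx18 had the largest difference in level. Schwann cell markers summed to 9.40 to 156 and 16.1 to 214 CPM, and macrophage markers to 1.35 to 272 and 0.584 to 522 CPM, in the same order, with 0 genes called in either list. Hair cell markers summed to 242 to 497 and 285 to 576 CPM over the 4 of 5 markers analysed here, again with 0 called. Most of this sum was Myo6, at means of 407 CPM in controls and 410 CPM with the Isl1CKO label. Myo7a was at 7.37 and 4.75 CPM in the same order. Pou4f3 and Gfi1, which were not tested, had group means of at most 0.544 CPM. In the Schwann cell, macrophage and hair cell lists edgeR found 0 genes at an unadjusted p under 0.05, and DESeq2 and limma-voom called 0. Endothelial markers reached at most 29.7 CPM in any library, with Cldn5 at or under 3 counts in each, and the 1 red blood cell marker analysed here, Hbb-y, at most 1.19 CPM. In libraries of sorted cells, fewer cells of a type and less RNA per cell cannot be told apart.

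With the mean log2 level of these 7 mesenchyme markers as a covariate, the log2 fold changes were -1.71 for Snx18, 0.93 for Map3k1, 0.46 for Gpx8, 1.15 for Nnt and -0.88 for 4833420G17Rik. Those of Mier3, 4933413L06Rik and Tmem267 were 0.56, -0.58 and -1.28. The covariate itself did not overlap between the groups, at most 1.82 in controls and at least 2.37 in Isl1CKO-labelled libraries, in log2(CPM + 1), and 0 of the 8 members then had an adjusted p under 0.05. With macrophage and Schwann cell levels as covariates, the log2 fold changes kept their direction for all 8 members and ran from -2.47 for Tmem267 to 1.64 for Nnt.

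**Figure D5:**
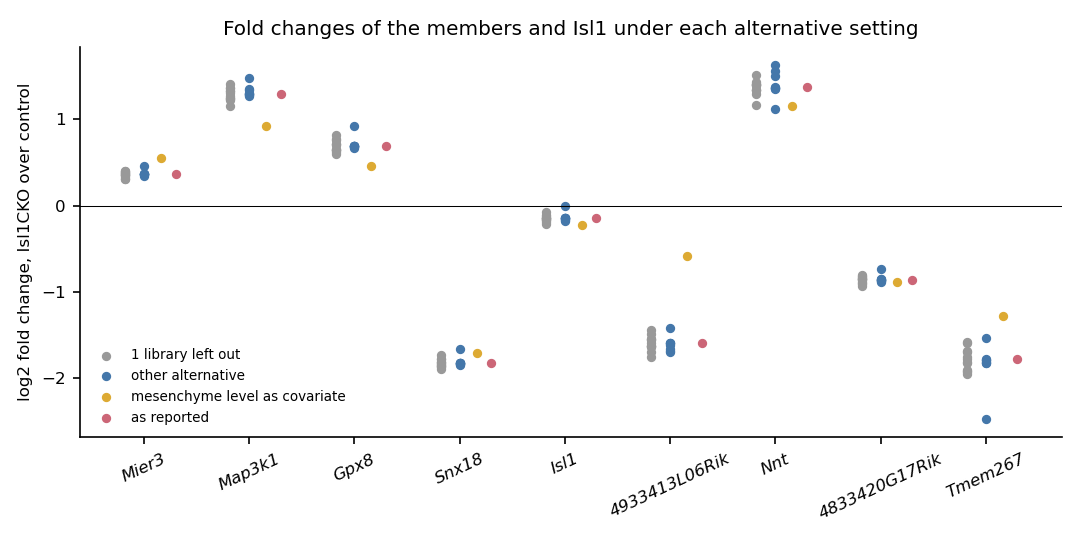
Log2 fold change (vertical axis) of each member and of Isl1 as reported (red), with 1 library left out (grey), with the mesenchyme level as a covariate (yellow) and under the other alternatives (blue). Snx18 stays between -1.90 and -1.67, and each of the 8 members keeps its sign in every fit shown.

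Per kilobase of exon, Gpx8 was the most abundant member in controls, at 29.4 CPM per kb, followed by Snx18 at 15.4, 4833420G17Rik at 14.6 and Mier3 at 11.7. Single control libraries of the last 3 genes overlapped on this scale. In Isl1CKO-labelled libraries the order was Gpx8 at 47.7, Mier3 at 15.0, Map3k1 at 9.20 and 4833420G17Rik at 8.05 CPM per kb, with Snx18 at 4.35.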

How the data were processed

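RNA of sorted spiral ganglion neurons was measured in 12 libraries. The authors deposited raw read counts for each gene as 1 table of whole numbers. The submitters' processing notes list cutadapt 1.18, Bowtie 1.2.2, STAR 2.7.0c, featureCounts and the build GRCm38.p6. The annotation and the use of strand are not given in the sources used here. Symbols and positions come from GENCODE M21 on GRCm38, which located 25627 of 25674 identifiers. The labels call the numbered samples technical replicates, while the design text calls them biological; p-values measure the spread between these samples.

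Genes passing filterByExpr (minimum count 10) were tested with edgeR 4.0.16 under R 4.3.3, with TMM scaling, the robust quasi-likelihood F-test and no covariate. P-values were adjusted by Benjamini-Hochberg over the 14813 tested genes, and 0.05 was the threshold. The standard error is the absolute log2 fold change divided by the square root of F. Alternatives used DESeq2 1.42.0, limma 3.58.1, other scalings, filters and covariates, a replicate block, and libraries left out. The test was first run on simulated counts. Mean chi-square per gene between libraries of a group was at least 20.6, so none held the same counts as another within counting noise; this does not show that they came from separate embryos.

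The members, gene lists and tests were chosen with earlier results of these data known. The text names the members and Isl1, their tested neighbours, up to 4 called genes per comparison region and up to 3 per list, or the one with the smallest p where none was called. Depdc1b, Pelo, Plk2, Parp8 and Emb, and the single markers, were named after their values were seen. Atoh1, Cdh5, Hba-a1, Hba-a2 and Hbb-bs were not analysed here. Some genes that the rule names are not reported here, and 1 of them is left out of the plot of fold change against distance.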

Additional observations from a re-analysis of the deposited data

How the results depend on the processing

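The log2 fold change of each of the 8 members kept its sign in all of the 22 alternative fits, or 21 where a filter left the gene out (4933413L06Rik and Tmem267). With macrophage and Schwann cell levels as covariates, the fold change of Tmem267 moved to -2.47, and 910 genes in place of 1511 and 5 of the relatives in place of 8 were called. With the mesenchyme level as a covariate, that of Mier3 moved to 0.56 and that of 4933413L06Rik to -0.58, 76 genes were called, and the relatives, the Gt(ROSA)26Sor region and the Neurod1 region held 0 calls each. Without the 3 libraries that held transcripts of each sex, 767 genes, 4 relatives and 3 genes near Gt(ROSA)26Sor were called. In that fit 3 members (Snx18, Map3k1 and 4833420G17Rik) had an adjusted p under 0.05. The mesenchyme level separates the groups, so it and genotype cannot be told apart in that fit. Whether the lower counts without the 3 libraries come from fewer samples or from what those libraries held was not tested.

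Within 2.5 Mb of Gt(ROSA)26Sor 2 genes were called in place of 5. With 1 library left out, that region held 3 to 5 calls. The lower count of 3 came without control 1 or 6 or Isl1CKO 2, 3, 5 or 6. The members without overlap numbered 5 to 8, reaching 8 without control 2. Control 2 was the control that made the groups of Mier3, Gpx8 and Tmem267 overlap. The share of all tested genes was not computed without it, so nothing is read from the 8. With 1 library left out, 5 to 8 members had an adjusted p under 0.05. Mier3 had one in 9 of 22 alternative fits, Gpx8 in 12, Nnt in 14, and Snx18, Map3k1 and 4833420G17Rik in 21. All these fits reuse libraries on which the members were chosen, so these counts and the kept signs are descriptions, with no test. Over all tested genes, 1178 to 1517 were called with 1 library left out. The replicate numbers are not shown to pair samples: same-numbered samples correlated at -0.056 to 0.15 after group means were removed, and 2 of 6 controls correlated best with their own number. The replicate block gave 1450 calls, 6 of them among the relatives, with the calls of Glrx5 and Mta2 lost and Nnt at an adjusted p of 0.0519. Members at a few CPM (Nnt, Tmem267 and 4933413L06Rik) rest on at most 127 counts per library, which limits their precision.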

Other observations

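Pelo, which encodes a factor that rescues stalled ribosomes, lies 1.21 Mb from Isl1 and is no member. Its groups did not overlap, with 2.49 to 4.10 CPM in controls and 1.81 to 2.30 CPM in Isl1CKO-labelled libraries, yet it missed the threshold (edgeR adjusted p = 0.193, log2 fold change -0.70 with a standard error of 0.31). Around Isl1 itself the nearest tested genes, Parp8 at 0.545 Mb and Emb at 0.899 Mb, had log2 fold changes of -0.075 and -0.26 with standard errors of 0.27 and 0.33.

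After the mean of each group was removed, the genes whose log2 CPM followed that of Nnt most closely over the 12 libraries were Gm10516 (Pearson's r = 0.917), Fam129c (0.911) and Nme5 (0.908). For Map3k1 they were Zfp619 (0.911), BC002059 (0.861) and P2rx4 (0.854). None of these lies on chromosome 13. These values are the highest of all tested genes, are given as a description, and share the depth and composition of the same libraries. Control 6 was the lowest control for both Nnt (0.659 CPM, others from 2.59 CPM) and Map3k1 (13.8 CPM, others from 22.0 CPM). This 1 library can weigh on the correlations, and their dependence on it was not tested.

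In 0 of 18 group values checked, those of the 8 members and Isl1 in each genotype, did 1 library lie apart from the other 5 by Dixon's criterion. About 0.9 such values would arise by chance.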
